A study of Yucca flaccida with 12 samples.

Results

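Grown for its striped leaves, the monocot Yucca flaccida 'Golden Sword' is known in horticulture for a yellow centre between green margins. Both zones of its variegated blade were compared here: 3 libraries from the centre (VC) against 3 from the edge (VE), 6 of the 12 libraries of the study, chosen by their titles. All groups carry the genotype label Golden Sword, received no treatment, came from plants kept in vitro and were taken from the second youngest leaf. The other 6 libraries, from the centre (UC) and edge (UE) of unvariegated leaves, are used below as points of reference. The labels record neither the colour of a zone, the age of the plants, nor whether the 3 libraries of a group are separate plants. All p-values below thus rest on the spread among libraries, part or all of which may be technical.

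In many variegated plants pale and green cells lie side by side because some cell lineages or tissue layers hold plastids that fail to build working chloroplasts. Chloroplast-bearing leaf cells usually devote much of their messenger RNA to a small number of photosynthesis genes. Centre and edge are also positions across the width of the blade, which can each have their own mix of veins, epidermis and mesophyll. The deposited tables list clusters of assembled transcripts, called genes here, under identifiers that are paired with no gene name. The labelled tissue could therefore not be checked against marker genes, and what each gene does is not known from these files.

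Total estimated counts were 15355998, 14509694 and 18816935 in VC and 17914144, 17126820 and 17169304 in VE. Library VE1 stood apart: 63 genes reached 10 CPM or more in VE1 (counts scaled to library size, here without a scaling factor) and stayed under 1 CPM in VE2 and VE3, against 4 to 7 such genes in each of the other 5 variegated libraries. None of these 63 genes was called different between the zones. Among 13885 genes averaging 10 CPM or more over the 6 libraries, the median SD of log2 CPM between libraries was 0.22 in VC and 0.18 in VE. The lowest correlation between libraries of a zone was 0.87, for VC1 with VC3.

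In these libraries the bulk of the RNA came from more genes at the centre than at the edge, a difference whose exact permutation test cannot go below p = 0.1 with 3 against 3 libraries. To reach 50% of all counts took 1015, 1244 and 1543 genes in VC1, VC2 and VC3, against 581, 581 and 677 genes in VE1, VE2 and VE3. Every VC library lay above every VE library. The means were 1267 ± 265 genes in VC and 613 ± 55.4 genes in VE (SD, n = 3 each; two-sided exact permutation p = 0.1, its smallest value; Benjamini-Hochberg adjusted p = 0.15 over 3 library measures). The same number was 1345, 1336 and 1102 in UC and 965, 924 and 1275 in UE, so every VE library also lay below all 6 unvariegated libraries. How many genes were seen at all did not separate the zones, with 99996, 103670 and 117899 genes of at least 1 count in VC and 105601, 102168 and 104214 in VE (exact permutation p = 0.9, adjusted p = 0.9).

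The most abundant transcripts held a smaller part of the RNA at the centre. The 80 genes averaging 1000 CPM or more over VC and VE held 23.3%, 21.5% and 19% of the counts in VC1, VC2 and VC3, against 30%, 30% and 28.8% in VE1, VE2 and VE3. The unvariegated libraries, which had no part in choosing these genes and may be lower for that reason, lay between 20.8% and 23.9%. With the 100 most abundant genes taken anew in each library, the shares were 25.1%, 23.3% and 21.5% in VC, 30.8% to 32.4% in VE, 23.9% to 26.1% in UC and 24.8% to 27.5% in UE. By that measure VE was still above all other libraries, and UC3, UE1 and UE2 were above every VC library. Of these 80 genes 77 had a negative log2 fold change in VC against VE, with a median of -0.72. The direction held for 68 of 80 when libraries were scaled by their totals alone, with a median of -0.40. Only 5 of the 80 passed the test one by one, 1 higher and 4 lower in VC.

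**Figure D1:**
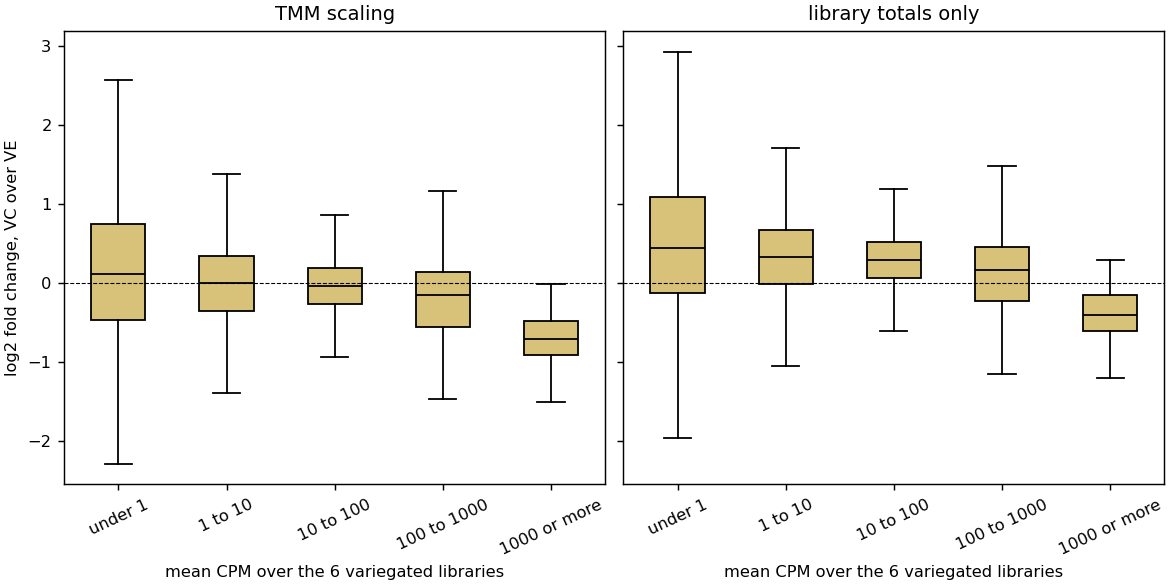
Log2 fold change of VC over VE (vertical axis) for tested genes grouped by mean CPM over the 6 variegated libraries (horizontal axis), with TMM scaling on the left and library totals only on the right; boxes span the quartiles, lines inside are medians and whiskers reach the farthest gene within 1.5 box lengths. The highest tier lies below 0 in both panels, with medians of -0.72 and -0.40, while the median of all genes moves by 0.33 between the scalings.

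Gene by gene, 565 of 59225 tested genes differed between the zones, 227 of them higher and 338 lower in VC. That is 0.954% of the genes tested (0.383% higher and 0.571% lower; edgeR's quasi-likelihood test on all 12 libraries, Benjamini-Hochberg adjusted p below 0.05), and 7361 genes had an unadjusted p below 0.05. In whole leaf pieces such as these, fewer cells of a type and less RNA per cell cannot be told apart. The libraries of the zones did not overlap for any of the 565 genes, as was so for 19.6% of all genes tested (VC above VE for 9.47% and below for 10.1%). Genes called different tend to have zones that do not overlap, so this is not separate evidence. The higher genes had a median level of 18.3 to 21.2 CPM in the VC libraries, against 7.08 to 9.04 CPM in the VE libraries. The lower genes had a median level of 9.29 to 10.2 CPM in the VC libraries, against 26.5 to 29.3 CPM in the VE libraries. In both sets the median levels of the unvariegated libraries fell between those of the zones. They were 11.6 to 12.3 CPM for the higher and 16.9 to 19.9 CPM for the lower genes. VC and VE libraries lay on opposite sides of the unvariegated range for 35 of 227 higher and 23 of 338 lower genes. These genes were chosen for a difference between VC and VE, so medians between the zones are not a test.

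The split between higher and lower genes depended on how libraries were scaled. TMM, a scaling that assumes most genes are unchanged, gave factors of 0.958 to 1.165 in VC and 0.807 to 0.878 in VE. With library totals alone the median log2 fold change of all genes shifted by 0.33, and 1815 genes were higher and 271 lower, 3.52% of those tested. DESeq2 called 2254 genes (3.81%), 992 higher and 1262 lower. Of the 565 genes, 463 were also called, in the same direction, with library totals alone.

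Among the genes called with TMM scaling, more had a large decrease than a large increase. These numbers were not counted anew with library totals alone, or with neighbouring identifiers (described below) counted once. Of the genes lower in VC 61 fell by 3 log2 units or more and 45 others by 2 to 3, whereas 12 of the higher genes rose by at least 3 and 31 by 2 to 3. Genes with 3 counts or fewer in a zone, 4 of the higher and 16 of the lower ones, were set to a floor of 3 counts over the group for a second count, which gave the same 4 numbers. By abundance, calls were made for 20 of 17858 genes under 1 CPM, 181 of 27482 at 1 to 10 CPM, 298 of 12439 at 10 to 100 CPM and 61 of 1366 at 100 to 1000 CPM. The median estimated effective length of genes higher in VC was 1239 bases, against 737 bases for the lower genes and 847 bases for all tested genes with an estimate. The median log2 fold change moved with length over all genes, at -0.08 under 300 bases and 0.09 at 2000 bases or more. The part of gene length in the direction of the calls was not tested.

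**Figure D2:**
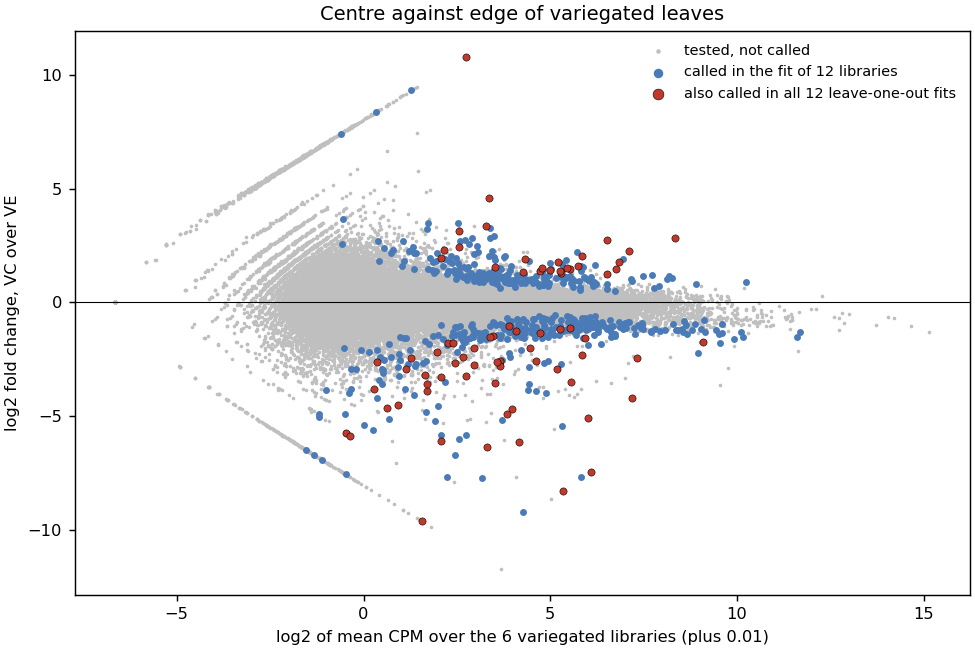
Log2 fold change of VC over VE (vertical axis) against log2 of mean CPM over the 6 variegated libraries plus 0.01 (horizontal axis) for all tested genes; grey points were not called, blue points were called in the fit of all 12 libraries, red points also in each fit with a library left out. Below 0 the called points reach further from the axis than above it, apart from genes with no counts in a zone, which lie on the outer diagonal lines.

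How many genes passed varied with the libraries used. The count was 87 without VC2, 224 without VC3, 205 without VE1, 115 without VE2, 193 without VE3 and 368 without UC2. A set of 75 genes was called in the same direction in the fit of all libraries and in all 12 fits with 1 library left out, 0.127% of the genes tested. In VC 26 of them were higher and 49 lower. With library totals alone 74 of the 75 were also called the same way, and DESeq2, RLE scaling and the replicate block each kept all 75. Of all 565 genes these alternatives kept 463, 561, 522 and 296 calls, in this order. All 565 kept their direction in each of them, so direction did not set the 75 apart. Under every alternative tried, 67 of the 75 stayed called, 26 higher and 41 lower.

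**Figure D3:**
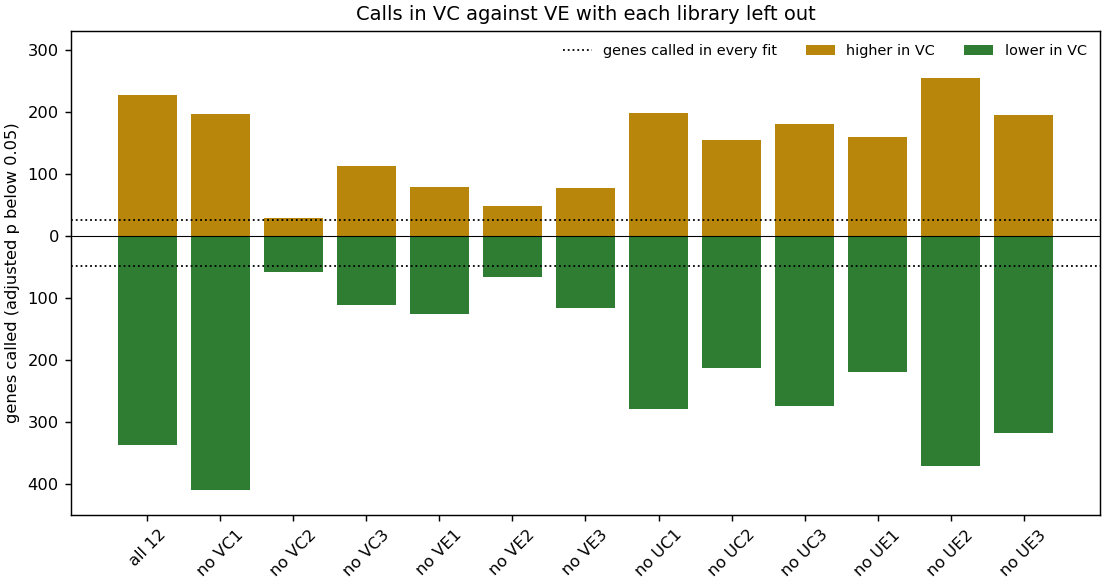
Number of genes called higher (upward bars) and lower (downward bars) in VC against VE with all 12 libraries and with each library left out; dotted lines mark the 26 higher and 49 lower genes called in every fit. The smallest total, 87, comes without VC2, and omission of VC1 or UE2 raises the total above 565.

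Among these 75 genes, the 26 higher ones had a median level of 47.7, 50.9 and 48.3 CPM in VC1, VC2 and VC3, against 12.5, 18.6 and 19.4 CPM in VE1, VE2 and VE3. The unvariegated libraries lay between 15.2 and 18.8 CPM, close to VE. The median log2 fold change was 1.77, and 10 genes rose by 2 log2 units or more. The 49 lower ones had a median level of 1.71, 1.92 and 2.17 CPM in VC1, VC2 and VC3, against 20, 17 and 18 CPM in VE1, VE2 and VE3. The unvariegated libraries stood at 11.5 to 13.6 CPM, again nearer VE. The median log2 fold change was -2.79, and 36 fell by 2 log2 units or more. With genes of 3 counts or fewer in a zone placed at the floor, both medians were the same.

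Each of the 75 genes was also placed against the range of the unvariegated libraries. For 25 of the 26 higher genes all 3 VC libraries were above all 6 unvariegated libraries, against 7.34% of all tested genes. For 8 of the 26 all 3 VE libraries were below them, against 7.15%. For 42 of the 49 lower genes all 3 VC libraries were below the 6 unvariegated ones, against 6.98% of all tested genes, and for 14 of the 49 all 3 VE libraries were above them, against 9.54%. Both zones lay outside the range for 7 of the higher and 8 of the lower genes, and neither did for 1 lower gene. Genes chosen for a difference between VC and VE have a VC or VE level far out by choice, so these shares describe the set and are not a test. Among all 338 lower genes VC was below the unvariegated range for 184 and VE above it for 163. Among all 227 higher genes VC was above that range for 159 and VE below it for 92.

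**Figure D4:**
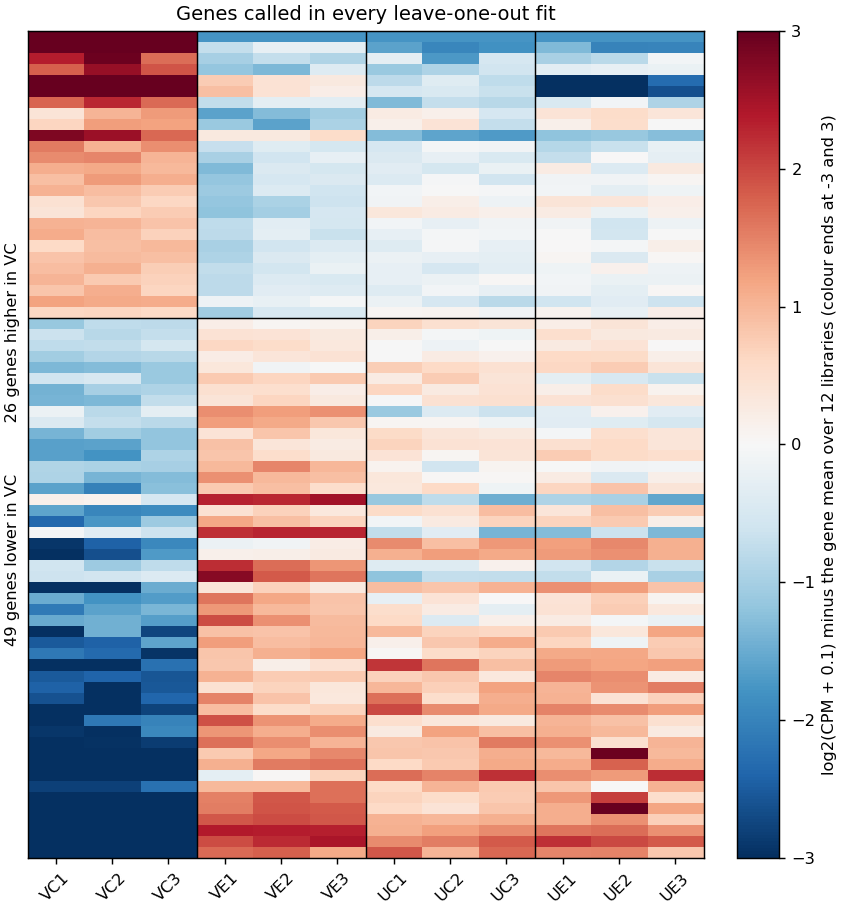
Level of the 75 genes called in every fit (1 row each, ordered by log2 fold change) in the 12 libraries (columns, grouped as VC, VE, UC and UE), as log2(CPM + 0.1) minus the gene's mean over the libraries; red is above and blue below that mean. The VC columns differ from the other 9 in most rows of both blocks, 26 higher above the line and 49 lower below it, while a few lower rows are red in VE alone.

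The most extreme members were close to a presence or absence of transcript. One gene had 11, 13 and 16.2 CPM in VC1, VC2 and VC3 and no counts in VE, UC or UE, which is at least 199.5-fold higher in VC than in VE when VE is set to a floor of 3 counts over the group. In the other direction, one gene had no counts in VC and 6.45, 6.97 and 4.35 CPM in VE1, VE2 and VE3, with 3.47 to 7.32 CPM in the unvariegated libraries. Against the same floor it was at least 101-fold lower in VC. Both were singled out after their values were seen. Over the whole table, 48 genes had at least 10 counts in every VC library and at most 3 counts over VE, and 29 genes the reverse. The like counts in unvariegated leaves were 27 genes in UC without UE and 24 in UE without UC. Of the 48 genes 45 were tested and 4 called, and of the 29 genes 27 were tested and 12 called. Over all tested genes 0.954% were called. The 48 and the 29 were picked for a large difference, so their calls are not a test.

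The 4 genes named here were chosen for the largest differences in mean CPM among the 75. Cluster-20123.55721 had 564, 608 and 539 CPM in VC1, VC2 and VC3, against 94.4, 75.4 and 68.2 CPM in VE1, VE2 and VE3. The lowest VC library was thus far above the highest VE library, and all 6 were above the unvariegated ones. Its level per length, as deposited, averaged 2778 ± 255 FPKM in VC and 309 ± 36.2 FPKM in VE (SD, n = 3 each). The gene rose in VC by 2.85 on the log2 scale (SE 0.34, adjusted p = 0.00476, edgeR). In unvariegated leaves it averaged 36.1 ± 6.27 CPM at the centre, UC, against 6.74 ± 4.01 CPM at the edge, UE (SD, 3 libraries each; log2 fold change 2.41, SE 0.34, adjusted p = 0.266, edgeR). The difference between the zone effects of variegated and unvariegated leaves was 0.44 (SE 0.45, adjusted p = 0.861, edgeR), which does not show that they were alike.

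Cluster-20123.59035 had 173, 263 and 254 CPM in VC1, VC2 and VC3, against 50.7, 36.2 and 56.5 CPM in VE1, VE2 and VE3. The unvariegated libraries lay between the zones, at 66.2 to 146 CPM in UC and 109 to 159 CPM in UE. The gene rose in VC by 2.26 on the log2 scale (SE 0.30, adjusted p = 0.00809, edgeR). Its zone effect in unvariegated leaves was -0.22 (SE 0.29, adjusted p = 1, edgeR), and the difference of zone effects, 2.48, had an adjusted p of 0.0633 in edgeR.

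Cluster-20123.56700 had 297, 190 and 272 CPM in VC1, VC2 and VC3, against 875, 800 and 859 CPM in VE1, VE2 and VE3. Here the edge stood alone, since UC ran from 155 to 252 CPM and UE from 264 to 365 CPM. The gene fell by 1.74 on the log2 scale in VC (SE 0.22, adjusted p = 0.00601, edgeR). The difference of zone effects was -1.20 (SE 0.31, adjusted p = 0.233, edgeR).

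Cluster-20123.83236 had 11.5, 9.06 and 24.5 CPM in VC1, VC2 and VC3, against 318, 245 and 266 CPM in VE1, VE2 and VE3. Both zones lay below the unvariegated libraries, which had 366 to 661 CPM in UC and 400 to 473 CPM in UE, and VC was the farther from them. The gene fell by 4.20 on the log2 scale in VC (SE 0.37, adjusted p = 0.000793, edgeR). The difference of zone effects was -4.35 (SE 0.48, adjusted p = 0.0101, edgeR), and it missed the threshold with the replicate block (adjusted p = 0.0572) and without UE3 (adjusted p = 0.0512), with a lowest adjusted p of 6.15e-18 over all alternatives.

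**Figure D5:**
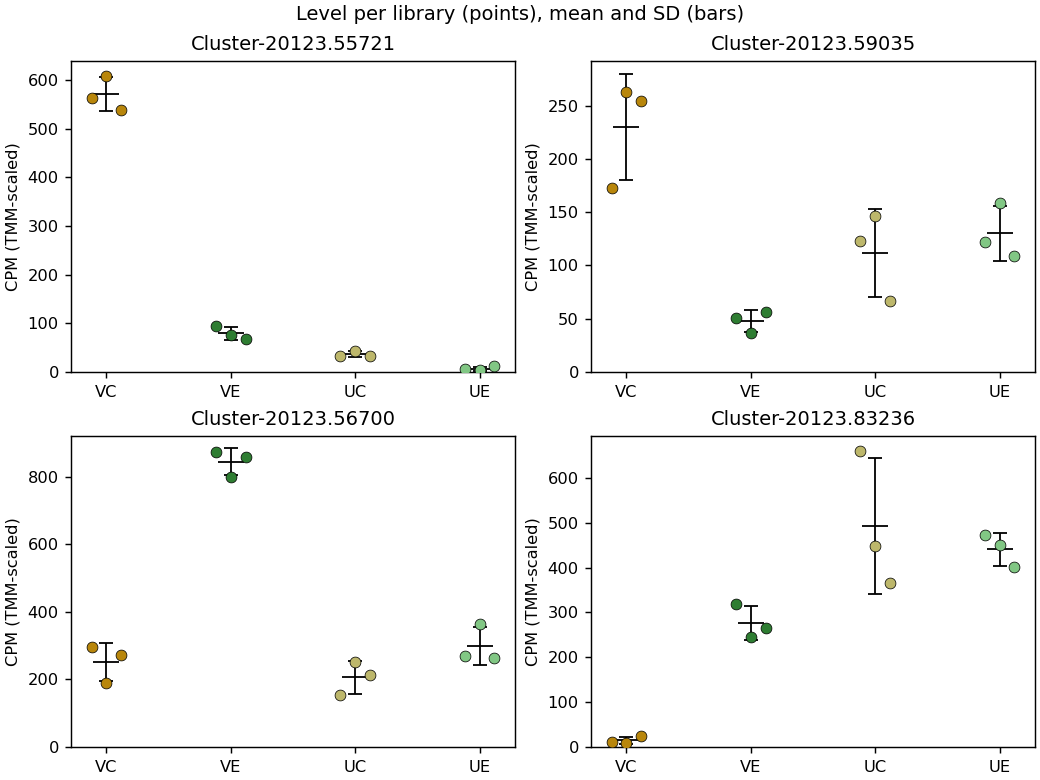
CPM with TMM scaling (vertical axis, from 0) of the 4 named genes in each library of VC, VE, UC and UE (horizontal axis); points are libraries, bars the mean and SD of 3. Cluster-20123.55721 is highest in VC, Cluster-20123.59035 is highest in VC and lowest in VE, Cluster-20123.56700 is highest in VE, and Cluster-20123.83236 is lowest in VC.

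All 4 named genes kept their direction and their call under each of the 21 alternatives. Of these, the 12 fits with 1 library left out were part of the rule that chose the genes. Only the 9 others could have gone against them. The adjusted p for VC against VE reached at most 0.0338 for Cluster-20123.55721, 0.0458 for Cluster-20123.59035, 0.0405 for Cluster-20123.56700 and 0.021 for Cluster-20123.83236 over all 21 alternatives. The first 3 of these values came from fits with 1 library left out. Estimated counts of Cluster-20123.55721 were whole numbers in all 6 variegated libraries, to within 0.001. Those of Cluster-20123.59035 were whole in 0, and of Cluster-20123.56700 and Cluster-20123.83236 in 1 of the 6, so that reads of these 3 genes were in part divided with other clusters. Among all tested genes 33.1% had whole counts in all 6 libraries, against 33.9% of the genes higher and 37.9% of the genes lower in VC.

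Some called genes had neighbouring identifiers, which can mark copies, alleles or pieces of one gene. When identifiers at most 2 apart were joined, 19 of the 75 genes fell into 7 runs, 6 of them wholly lower and 1 wholly higher in VC. If each run is counted once, the 75 genes make 63 units. The 2 longest runs held 4 genes each, with log2 fold changes of -3.89 to -2.60 in one and -3.20 to -2.39 in the other. A run of 3 genes fell further, by 6.14 to 7.43 on the log2 scale, and its group means were 0.235 to 0.747 CPM in VC against 19.6 to 135 CPM in VE. Across all 565 called genes the 57 runs were wholly lower in 38, wholly higher in 12 and mixed in 7. Each of the 4 named genes lay in such a run, with 1 neighbour called in the same direction.

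The zones of unvariegated leaves gave few calls in the same fit. In UC against UE 1 gene passed (0.00169% of those tested; 3091 genes had an unadjusted p below 0.05, and DESeq2 called 113). That gene is among the 26 higher genes called in every VC against VE fit, and its zone effect in unvariegated leaves went the same way, at 2.68 on the log2 scale. Its identifier is in one run with that of Cluster-20123.55721, whose zone effect there was 2.41 and was not called. The call of the 1 gene that passed is therefore not separate from the pattern of that named gene if both are pieces or copies of one gene. The call of the gene that passed was lost with the replicate block (adjusted p = 0.458, edgeR) and without VC1, VC2, VC3, VE2, VE3, UC1, UC2, UE1 or UE2, at edgeR adjusted p between 0.0574 and 0.285. All 26 higher genes had zone effects of -0.63 to 2.68 in unvariegated leaves, with a median of -0.10 on the log2 scale. The 49 lower ones had zone effects of -1.47 to 0.96 there, with a median of -0.04. The gene at -1.47 had 86.6 CPM in UE2, against 22 CPM in UE1 and 23.3 CPM in UE3. A difference of zone effects between variegated and unvariegated leaves was called for 57 genes (0.0962% of those tested), and 55 of these were among the 565 and 42 among the 75. The number of calls was not stable: 6 genes were called with the replicate block, and with 1 library left out there were 9 to 35, except without VC1 (48) or UE2 (72). That test uses the same VC and VE libraries as the calls, so the overlap is not separate evidence.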

How the data were processed

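Polyadenylated RNA was sequenced from 12 libraries. The submitters' processing notes name CASAVA 1.8, RSEM and Bowtie2; how transcripts were assembled and clustered, and other versions, are not given in the sources used here. Both tables are by gene: the authors deposited expected counts and FPKM values (scaled to gene length and library size) for 185746 genes. Of the values in the variegated libraries 21.3% were not whole.

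Counts were rounded. Genes were kept by filterByExpr (minimum count 10, minimum total 15), which left 59225 genes with 99% of the variegated counts. Under R 4.3.3, edgeR 4.0.16 was run on all 12 libraries with TMM, robust glmQLFit and glmQLFTest as the main test; a gene was called at a Benjamini-Hochberg adjusted p below 0.05. The fit was tested on simulated data. CPM are TMM-scaled unless stated, and a standard error is the absolute log2 fold change over the root of F. Effective length was taken from the ratio of counts to the deposited FPKM. Replicate pairs differed by a chi-square per degree of freedom of 10.7 to 37.7, so none agreed within sampling noise. The floor of 3 counts covers counting error only. Alternatives were RLE, library totals, other filters, DESeq2 1.42.0, limma-trend (limma 3.58.1) on FPKM, a replicate block, the 6 variegated libraries alone, and each library left out.

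The 4 named genes had the largest differences in mean CPM, 2 in each direction, among genes called in every leave-one-out fit with zones that did not overlap. The comparison and rules were chosen with earlier results of these data known.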

Additional observations from a re-analysis of the deposited data

Results flagged for a closer look

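The centre-edge difference itself differed between variegated and unvariegated leaves for 57 genes by edgeR's interaction test (Benjamini-Hochberg adjusted p below 0.05), higher in variegated leaves for 21 and lower for 36. This count was 6, all negative, with the replicate block, and it was 0 for the positive side without VE2, UE3 or UC2. Among the named genes the interaction was called for Cluster-20123.83236, at -4.35 on the log2 scale (adjusted p = 0.0101, edgeR; 0.0512 without UE3).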

How the results depend on the processing

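The count of 565 genes was 2254 with DESeq2 (992 higher, 1262 lower), 2086 with library totals only, 1792 and 1739 with limma-trend on log2 of FPKM plus 1 and plus 0.1, 956 without a low-count filter and 230 with only the 6 VC and VE libraries. With 1 library left out it ran from 87 to 626. RLE scaling gave 529 and the filter of 1 CPM in 3 libraries 672. FPKM plus 1 also changed the split, to 1504 higher and 288 lower. The 57 interaction calls became 826 with DESeq2, 319 without a filter, 94 with FPKM plus 1, and 9 to 72 with 1 library left out. Same-numbered VC and VE libraries had correlated deviations of 0.33, 0.08 and 0.48, against -0.48 to 0.08 for pairs with different numbers. For each VC library the same-numbered value was the highest. For VE2 it was not, at 0.08 with VC2 against 0.081 with VC1. The main fit did not pair the samples, and whether equal numbers mark a pair was not settled. With the replicate block there were 477 calls in VC against VE, 296 of them shared with the 565, and 6 in the interaction. The interaction of Cluster-20123.55721 ran from -0.15 to 0.75 with 1 library left out; it was negative without UE3 and was called under none of the alternatives. The interaction of Cluster-20123.59035 passed under 4 of 20 alternatives and that of Cluster-20123.56700 under 2 of 20. The VC minus VE difference in genes detected, 3194, ran from -2161 to 6790 with 1 library left out and was negative without VC3. The number of genes that hold 50% of the counts kept its direction, at 516.5 to 780.5 more genes in VC with 1 library left out. With FPKM in place of counts it was 471 more genes, and for 75% of the counts 1720 more. The share of the top 100 genes, at -8.50 points, also kept its direction. It was -9.42 to -7.57 points with 1 library left out, -10.9 with FPKM and -8.67 for the top 1000 genes. The causes of these shifts were not tested. With 3 libraries a zone, small changes of scarce transcripts are limited by depth and spread.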
